A study of Mus musculus with 16 samples.

Results

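Dendritic cells are the sentinel leukocytes of the spleen that take up antigen and present it to T cells. The 8 genes described here mark their subsets: Flt3, Zbtb46, Batf3, Clec9a, Clec4a4, Cd209a, Clec10a and Siglech. They were chosen by symbol from the count table, which holds 54838 gene identifiers. All 8 were found, each with the same symbol in the annotation, and all 8 passed the filter on low counts that left 14510 genes to test between the spleen preparations. RNA was sequenced from the spleen of C57BL/6 mice in 16 samples. In 8 of them, called size-selected, the minced spleen was digested in a dissociation buffer and then with the protease Dispase II, red blood cells were lysed, and the cells held back by a cell strainer were lysed for RNA. The submitters name the source of these samples as spleen glia. The other 8 are whole spleen, for which the labels repeat the same protocol and describe no separate preparation. Each of 8 numbers appears once in either group, 4 numbers being male and 4 female, and the labels give no age, treatment or altered gene for any sample.

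Conventional dendritic cells grow from bone marrow precursors that carry the receptor tyrosine kinase Flt3, and they switch on the zinc finger factor Zbtb46. They divide into a type 1 subset, which depends on the factor Batf3 and displays the dead cell receptor Clec9a, and a type 2 subset, which in mice is recognised by lectins such as Clec4a4 (the inhibitory receptor DCIR2), Cd209a (a relative of human DC-SIGN) and Clec10a (the galactose-binding lectin MGL1). Plasmacytoid dendritic cells, the strong producers of type I interferon, carry the sialic acid-binding lectin Siglech. None of these genes is fully restricted to dendritic cells: Zbtb46 is also expressed by endothelial cells, Flt3 by early progenitors, Clec10a by macrophages and Siglech by some macrophages.

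Sequence bears on how well 3 of these genes can be counted. Clec10a lies on chr11:70156197-70170834 of GRCm38, next to its near copy Mgl2, and 270 of the 3181 stretches of 50 bases in its annotated transcripts also occur in transcripts of Mgl2. Clec4a4 lies on chr6:122990367-123024105, and 114 of its 727 such stretches occur in Clec4a2. Clec9a, on chr6:129408862-129424763, has exons that overlap those of Clec1b on the same strand, and 136 of its 3385 stretches are found in that gene. The other 5 genes share at most 0.389% of their stretches with any other gene. The longest coding runs that Clec10a and Clec4a4 have in common with their relatives are shown because a read from within them fits both genes equally. They are given 5′ to 3′ in lower case with no base capitalised, and each crosses at least 1 intron in the genome. The first has 183 bases between chr11:70169822-70170189 and the second 163 bases between chr6:122990441-123004046.
Clec10a and Mgl2: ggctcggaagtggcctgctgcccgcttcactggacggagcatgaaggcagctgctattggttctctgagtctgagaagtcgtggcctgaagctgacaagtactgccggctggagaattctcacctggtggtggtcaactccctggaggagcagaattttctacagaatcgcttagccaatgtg
Clec4a4 and Clec4a2: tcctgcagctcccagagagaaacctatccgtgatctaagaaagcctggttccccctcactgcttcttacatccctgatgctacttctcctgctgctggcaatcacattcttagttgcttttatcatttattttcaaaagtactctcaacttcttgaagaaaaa

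Of the remaining genes, Flt3 lies on chr5:147330741-147400489, Zbtb46 on chr2:181387762-181459426, Batf3 on chr1:191097847-191108945, Cd209a on chr8:3743397-3748984 and Siglech on chr7:55768178-55778925. RefSeq promoter windows (GRCm38.p6, 300 bases each, 250 of them before the start) were at hand for 6 of the 8 genes. The 250 bases before the start are shown for Flt3 and Cd209a, which were lower in the size-selected sample of all 8 pairs and whose upstream bases overlap no annotated exon. That of Flt3 is chr5:147400490-147400739 and that of Cd209a is chr8:3748985-3749234, both on the minus strand and written 5′ to 3′ along the gene.
Flt3: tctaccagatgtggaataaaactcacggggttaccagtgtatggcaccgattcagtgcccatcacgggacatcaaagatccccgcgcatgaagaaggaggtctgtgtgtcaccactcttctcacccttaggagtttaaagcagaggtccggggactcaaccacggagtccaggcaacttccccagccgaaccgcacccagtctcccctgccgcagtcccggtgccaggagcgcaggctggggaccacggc
Cd209a: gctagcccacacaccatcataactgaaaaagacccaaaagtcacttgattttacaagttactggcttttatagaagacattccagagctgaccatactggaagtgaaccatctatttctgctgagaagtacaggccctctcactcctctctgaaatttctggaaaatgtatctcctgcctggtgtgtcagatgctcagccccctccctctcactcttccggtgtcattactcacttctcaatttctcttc

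The stretch of Flt3 holds 13 CpG and that of Cd209a 1. Over whole windows the CpG count was 18 for Flt3, 34 for Batf3, 2 for Siglech and 1 each for Zbtb46, Clec9a and Cd209a, against a median of 7 over 32851 windows. A pair of motifs was searched on both strands, with overlaps allowed: the letters GAGGAA, the core bound by PU.1 factors, and the letters TGANTCA, an AP-1 site in which N is any base. The first was found in 28.3% of all windows and the second in 7.81%. GAGGAA occurred once in the window of Batf3 and once in that of Siglech, and TGANTCA once in that of Zbtb46. The windows of Batf3 and Zbtb46 both lie inside the annotated gene. Neither was found in the windows of Flt3, Clec9a and Cd209a.

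Estimated counts summed to between 13119992 and 19944440 per size-selected sample and between 12153770 and 16282454 per whole spleen sample. Levels are given as CPM, the count of a gene relative to the total of its sample, scaled by the trimmed mean of M values, and a gene was called when the adjusted p of edgeR's quasi-likelihood test was under 0.05. Between the preparations 67.9% of the 14510 tested genes were called: 37.5% were higher in the size-selected samples and 30.4% were higher in whole spleen, for a median log2 fold change of 0.05. Beside the glial label were set 6 glial genes picked after earlier results were known. Cdh19, a cadherin of Schwann cell precursors, ranged from 4.74 to 80.4 CPM in the size-selected samples and was at 0 in 5 whole spleen samples, with at most 0.280 CPM in the others. S100b, a calcium-binding protein of glia, ranged from 3.59 to 18.0 CPM in the size-selected samples and was at 0 in 6 whole spleen samples, with at most 0.490 CPM in the others. Of the 6, the 4 that passed the filter were all called higher, and Sox10 and Foxd3 did not pass it. Cdh19 and S100b could pass it only through the size-selected samples, so their calls were nearly fixed in advance. These calls therefore do not test the label. Markers of other cell types differed as well. All 8 endothelial markers were called higher (summed level 2081 to 5725 CPM against 127 to 442 CPM), while all 7 T cell markers (67.3 to 475 CPM against 701 to 1046 CPM) and 6 of 7 B cell markers (983 to 3511 CPM against 5477 to 6762 CPM) were called lower. In such bulk samples fewer cells of a type and less RNA per cell cannot be told apart.

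The 8 genes did not move together. In the size-selected samples Zbtb46 and Batf3 rose, Flt3 and Clec9a fell, and Clec4a4, Cd209a, Clec10a and Siglech did not pass the test. Thus 4 of 8 were called in this fit without the pairing, or 2 in either direction, beside the 67.9% of all tested genes. With the number as a block Cd209a was called lower as well, beside 31.3% of all genes in that fit. On restored counts, described below, Clec10a was called higher as well, beside 37.6% of genes. Their median log2 fold change was -0.11 (all tested genes, 0.05).

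**Figure D1:**
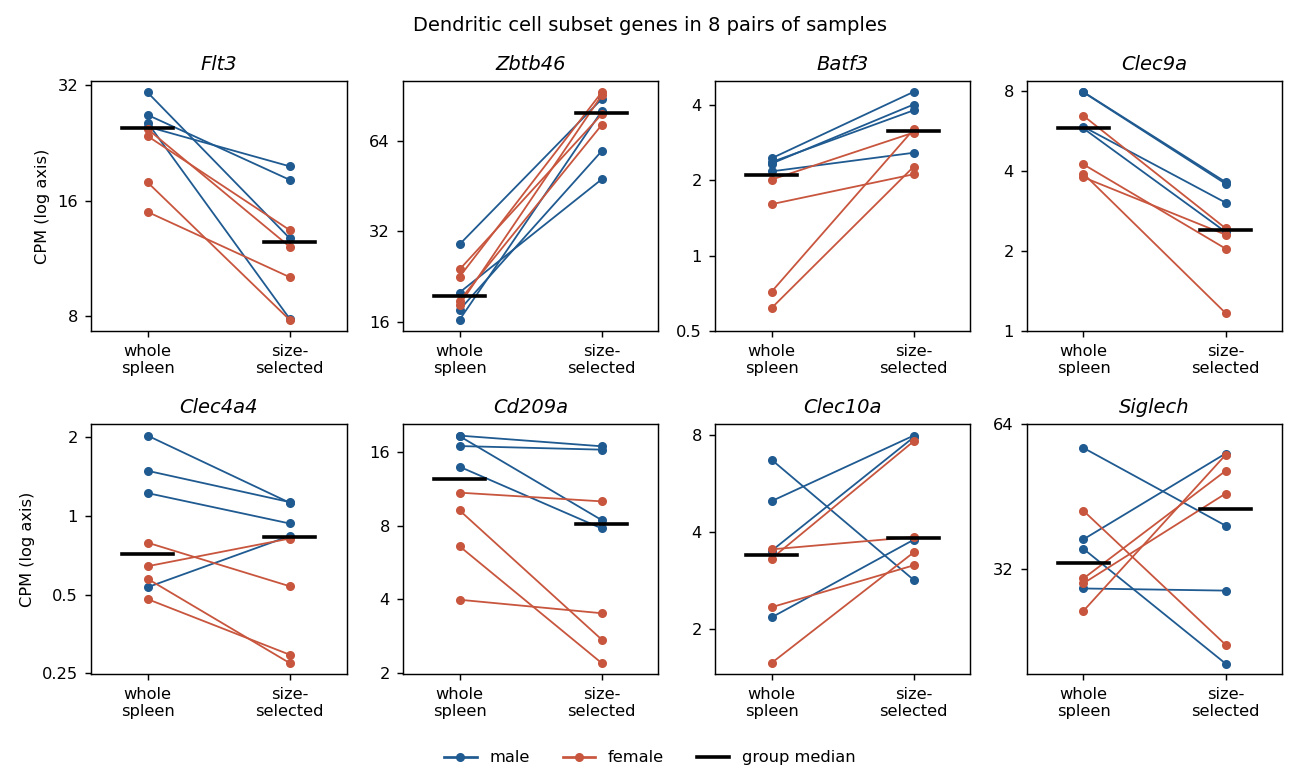
Level of each gene in CPM (vertical axis, logarithmic) in the whole spleen and size-selected sample of each of 8 numbers, joined by a line. Blue lines are male and red lines female numbers, and black bars are group medians; Zbtb46 rises and Flt3, Clec9a and Cd209a descend along every line, while the lines of Siglech cross.

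Flt3, the receptor for the growth factor that sustains dendritic cells, ranged from 7.82 to 19.7 CPM in the size-selected samples, with a median of 12.5 CPM. In whole spleen it ranged from 15.0 to 30.6 CPM, with a median of 24.8 CPM. The size-selected sample was the lower one in 8 of 8 pairs and 6 of the 8 lay under every whole spleen sample, although the groups overlapped. This amounted to a log2 fold change of -0.89, with an SE of 0.20 and n = 8 per group (edgeR adjusted p = 0.000599).

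Clec9a, which detects actin exposed by dying cells, ranged from 1.17 to 3.64 CPM in the size-selected samples (median 2.40 CPM) and from 3.79 to 7.93 CPM in whole spleen (median 5.83 CPM). The groups did not overlap, and every pair showed the lower level in the size-selected sample. On the log2 scale the difference was -1.15 (SE 0.24, edgeR adjusted p = 0.000304), from counts of 16 to 64 against 56.93 to 112.95. Clec1b, the platelet and myeloid lectin whose exon runs into the start of Clec9a, rose by a log2 fold change of 1.12 (edgeR adjusted p = 0.000413), the direction opposite to that of Clec9a. What the shared stretch contributes to either count was not tested.

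Zbtb46 moved the other way. It ranged from 47.7 to 92.8 CPM in the size-selected samples, with a median of 79.4 CPM, and from 16.3 to 29.0 CPM in whole spleen, with a median of 19.4 CPM. The groups were well apart and all 8 pairs rose, by 1.87 on the log2 scale (SE 0.15, edgeR adjusted p = 3.47e-09). Endothelial markers rose in the same samples: the endothelial cadherin Cdh5 had a log2 fold change of 4.65, the adhesion molecule Pecam1 2.12 and the growth factor receptor Kdr 5.06, and the smallest of the 8 endothelial fold changes exceeded that of Zbtb46. Tek was at 0 in at least 1 whole spleen sample and no other endothelial marker was. The part of endothelial RNA in the level of Zbtb46 was not tested.

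Batf3, a partner of AP-1 factors, was sparse. It ranged from 2.11 to 4.51 CPM in the size-selected samples (median 3.15 CPM) and from 0.618 to 2.45 CPM in whole spleen (median 2.09 CPM), from counts of 9 to 63. All 8 pairs rose and 6 of the 8 size-selected samples lay above every whole spleen sample. Its fold change was 0.84 on the log2 scale (SE 0.29, edgeR adjusted p = 0.0152). In the 4 male pairs alone it was 0.60 and not called (edgeR adjusted p = 0.139), and in the 4 female pairs 1.10 (edgeR adjusted p = 0.0380). Batf3 and Clec9a, the pair of type 1 genes, thus changed in opposite directions.

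Among the type 2 lectins, Cd209a ranged from 2.19 to 16.9 CPM in the size-selected samples (median 8.12 CPM) and from 3.98 to 18.7 CPM in whole spleen (median 12.4 CPM). The groups overlapped widely, yet the size-selected sample was the lower one in 8 of 8 pairs, by between 0.05 and 1.76 on the log2 scale. Without the pairing the log2 fold change was -0.54 (SE 0.41, edgeR adjusted p = 0.253). With the number as a block it was -0.70 (SE 0.22, edgeR adjusted p = 0.0130) and Cd209a was called lower, as were 31.3% of all genes tested in that fit.

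Clec10a ranged from 2.84 to 7.97 CPM in the size-selected samples, with a median of 3.82 CPM, and from 1.57 to 6.71 CPM in whole spleen, with a median of 3.40 CPM. It was higher in 7 of 8 pairs, number 408 being the exception at -1.24 on the log2 scale. The log2 fold change of 0.53 did not pass the test (SE 0.31, edgeR adjusted p = 0.137). Clec10a is the only one of the 8 genes whose deposited size-selected counts had been multiplied by a constant, between 0.770 and 0.858 depending on the sample. After division by it the log2 fold change was 0.76 (SE 0.30, edgeR adjusted p = 0.0328) and Clec10a was called higher, as were 37.6% of genes in that fit. On the deposited counts without number 408 it was 0.82 (edgeR adjusted p = 0.0242). Mgl2, the near copy, rose in all 8 pairs by 2.67 on the log2 scale (SE 0.59, edgeR adjusted p = 0.000548), from 0.0809 to 2.03 CPM in whole spleen to 1.20 to 10.2 CPM. The sum of both was taken on restored counts, so that a shared read weighs the same in either gene. Sample totals and scaling stayed those of the deposited counts. This sum was 4.77 to 19.7 CPM in the size-selected samples (median 8.87 CPM). In whole spleen it was 1.70 to 8.01 CPM (median 3.75 CPM), and the size-selected sample had the higher sum in 7 of 8 pairs.

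Clec4a4 was near the limit of counting, with 4.03 to 29 counts per sample. It ranged from 0.274 to 1.13 CPM in the size-selected samples (median 0.829 CPM) and from 0.481 to 2.03 CPM in whole spleen (median 0.717 CPM). The size-selected sample was the lower one in 6 of 8 pairs although its group had the higher median. Its log2 difference was -0.38 (SE 0.38, edgeR adjusted p = 0.384) and was not called. Single pairs ranged from -1.07 to 0.65. Clec4a2, the relative that shares its sequence, had a log2 fold change of 0.39 and did not pass the test either (edgeR adjusted p = 0.197). With the number as a block Clec4a2 was called higher (edgeR adjusted p = 0.0368), as were 5531 of the 14510 genes tested. Clec4a4 was not called in that fit (edgeR adjusted p = 0.293).

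Siglech, the plasmacytoid gene, ranged from 20.3 to 55.6 CPM in the size-selected samples (median 42.6 CPM) and from 26.2 to 57.1 CPM in whole spleen (median 32.9 CPM). It was higher in 4 pairs and lower in 4. The extremes were number 447, at 55.3 against 26.2 CPM, and number 436, at 22.3 against 42.3 CPM. Its log2 difference was 0.15 (SE 0.22, edgeR adjusted p = 0.555), so its CPM show no direction.

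**Figure D2:**
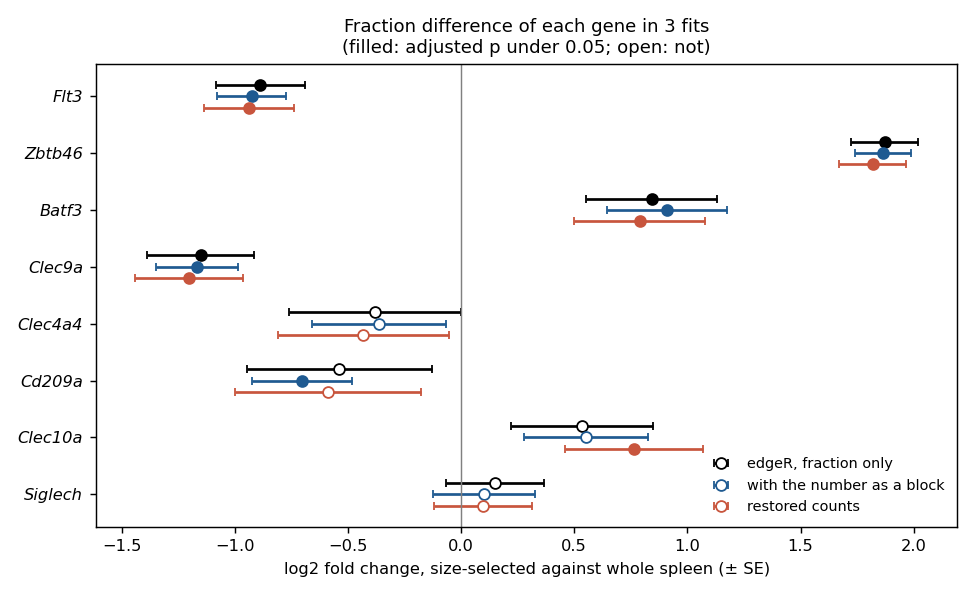
Log2 fold change (horizontal axis, with SE bars) of each gene, size-selected against whole spleen, in edgeR with the preparation alone (black), with the number as a block (blue) and on restored counts (red). Filled points have an adjusted p under 0.05; Flt3, Zbtb46, Batf3 and Clec9a are filled in all 3, Cd209a is filled with the block and Clec10a on restored counts.

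The genes were also set against genes that all leukocytes express, within each sample. The 4 genes of that list fell by unequal amounts on the log2 scale: Ptprc, the surface phosphatase CD45, by 0.56 (edgeR adjusted p = 0.00712), Laptm5 by 0.85, Cd53 by 1.01 and Coro1a by 1.15. The sign for the genes that fell in CPM depends on which of them is the reference. The log2 level of Flt3 changed by -0.36 ± 0.21 (SD, n = 8 pairs) relative to Ptprc, by -0.06 ± 0.21 relative to Laptm5, by 0.12 ± 0.30 relative to Cd53 and by 0.29 ± 0.28 relative to Coro1a. For Clec9a the values were -0.61 ± 0.40, -0.30 ± 0.38, -0.12 ± 0.50 and 0.04 ± 0.51, in the same order.

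Zbtb46 and Batf3 were higher in 8 of 8 pairs relative to each of the 4 references. Zbtb46 changed by between 2.43 ± 0.61 (Ptprc) and 3.09 ± 0.62 (Coro1a), and Batf3 by between 1.53 ± 0.87 and 2.18 ± 0.85. Clec10a changed by 1.11 ± 0.96 relative to Ptprc, or 1.41 ± 0.94 on restored counts, upward in 7 of 8 pairs. Siglech changed by 0.67 ± 0.81 relative to Ptprc, upward in 5 of 8 pairs, and by 1.32 ± 1.02 relative to Coro1a, upward in 8 of 8. It was higher in 8 pairs relative to Cd53 and in 7 relative to Laptm5. Cd209a changed by -0.16 ± 0.93 relative to Ptprc and 0.49 ± 0.72 relative to Coro1a, and Clec4a4 by 0.20 ± 0.70 and 0.85 ± 0.73. Itgax, which encodes the integrin CD11c of dendritic cells and some macrophages, had a log2 fold change of -0.04 in CPM and changed by 0.53 ± 0.44 relative to Ptprc, upward in 7 pairs.

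**Figure D3:**
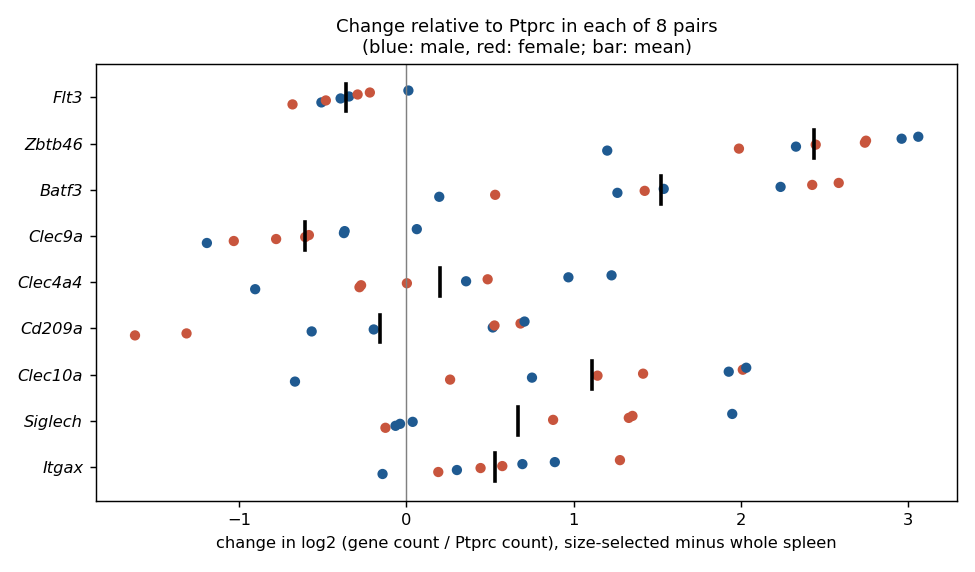
Change in the log2 ratio of each gene's count to the Ptprc count (horizontal axis), size-selected minus whole spleen, with 1 point per pair (blue male, red female) and the mean as a bar. All points of Zbtb46 and Batf3 lie above 0, and 1 point each of Flt3 and Clec9a does; with Coro1a as the reference 6 pairs of Flt3 and 4 of Clec9a would.

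Levels can be compared between genes only per length of transcript, here as CPM per kilobase of annotated exons, given as mean ± SD over 8 samples. In whole spleen Siglech was highest (10.6 ± 2.95), followed by Cd209a (7.82 ± 3.53), Flt3 (3.82 ± 0.81), Zbtb46 (2.44 ± 0.49), Clec9a (1.74 ± 0.51), Clec4a4 (1.25 ± 0.72), Clec10a (1.21 ± 0.57) and Batf3 (1.12 ± 0.46). In the size-selected samples Siglech (11.8 ± 4.27) was followed by Zbtb46 (8.95 ± 1.87), Cd209a (5.37 ± 3.65), Flt3 (2.06 ± 0.70), Batf3 (2.00 ± 0.54), Clec10a (1.75 ± 0.80), Clec4a4 (0.96 ± 0.44) and Clec9a (0.78 ± 0.25). Neighbours in either order overlapped in their ranges over samples, and the steps between them were not tested. Zbtb46 moved from rank 4 to rank 2 and Clec9a from rank 5 to rank 8. On restored counts, with the totals and scaling of the deposited counts, Clec10a was at 2.13 ± 0.91 in the size-selected samples, at rank 4 instead of 6.

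Over 5 lists of other genes known from dendritic cells, 51 genes were tested, of which 20 were called higher and 18 lower, with a median log2 fold change of 0.00 (all tested genes, 0.05). These shares are near those of all tested genes, 37.5% higher and 30.4% lower. In the type 1 list 4 of 11 genes rose and 4 fell, again near those shares, with a median of -0.13. Its first genes include Xcr1, the chemokine receptor most typical of the subset, which fell by 0.63 on the log2 scale (edgeR adjusted p = 0.0133), from 5.18 to 9.72 CPM in whole spleen to 2.51 to 6.52 CPM, lower in all 8 pairs. Wdfy4, needed for cross-presentation, fell by 0.71 with no overlap of the groups (edgeR adjusted p = 0.000126). Irf8, a factor shared by type 1 cells, plasmacytoid cells, B cells and macrophages, had a log2 fold change of -0.01 (edgeR adjusted p = 0.932). Tlr3, the sensor of double-stranded RNA found in many non-immune cells as well, rose by 3.25 and was singled out after its value was seen.

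In the type 2 list 6 of 11 genes were called higher (7 with the number as a block) and 2 lower, with a median of 1.47. Beside them stand 37.5% and 30.4% of all tested genes, and whether the list differs from these was not tested. With the block 5531 of 14510 genes were called higher. Sirpa, the CD47 receptor of myeloid cells, rose by 1.70 with no overlap (edgeR adjusted p = 2.57e-07), whereas Irf4, the factor of type 2 cells and of activated B and plasma cells, fell by 0.71 (edgeR adjusted p = 0.00554). The largest rise of that list, seen only after its value was known, belonged to Esam, an adhesion molecule shared with endothelium, at 4.01 (4.71 on restored counts). Macrophage markers moved with this list. Of 11 red pulp macrophage genes 6 were called higher (8 with the block) and none lower (summed level 3627 to 9073 CPM against 2294 to 4282 CPM). All 4 marginal zone macrophage genes rose (332 to 1087 CPM against 34.2 to 179 CPM). No macrophage marker was at 0 in any sample. Their part in the type 2 values was not tested.

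In the plasmacytoid list 4 of 13 genes rose and 7 fell, with a median of -0.63, beside 37.5% and 30.4% of all tested genes. Tcf4, the factor that sets plasmacytoid identity and is expressed in many other cells, rose by 0.30 (edgeR adjusted p = 0.0162). Bst2, an interferon-induced surface protein, rose by 1.30 with no overlap (edgeR adjusted p = 3.77e-06). Spib, a factor that plasmacytoid and B cells share, fell by 1.18 with no overlap (edgeR adjusted p = 2.36e-05). Siglech lay between them. The other genes called lower were Cox6a2 (-1.79), Pacsin1 (-1.22), Runx2 (-1.14), Tlr9 (-0.94), Ccr9 (-0.63) and Kmo (-0.46). The others called higher were Ptprs (2.06) and Tlr7 (0.65), and Irf7 and Cd300c were not called.

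Of the genes of mature, migrating dendritic cells 6 of 10 tested were called higher and 3 lower with a median of 1.01, beside 37.5% and 30.4% of all tested genes. Fscn1, the actin-bundling protein of mature cells, rose by 1.58 (edgeR adjusted p = 5.45e-06) and Ccr7, the lymphoid homing receptor that naive T cells and B cells carry too, fell by 1.05 (edgeR adjusted p = 0.000249). Ccl22, a chemokine of mature cells, had a log2 fold change of 0.40 and was not called (edgeR adjusted p = 0.151). Ccl17 did not pass the filter. In the list of common dendritic cell genes none of 6 rose and 2 fell, beside 37.5% and 30.4% of all tested genes. Naaa, a lysosomal hydrolase, was at 0.07 and Dpp4, a surface peptidase, at 0.01 on the log2 scale (edgeR adjusted p = 0.685 and 0.946). On restored counts Relb (-0.01) and Cd83 (-0.12), both called lower as deposited, were not called, and Dpp4 (0.41) and Ly75 (0.28) were called higher. Cd40, the receptor for T cell help, stayed called lower but moved from -1.26 to -0.56.

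**Figure D4:**
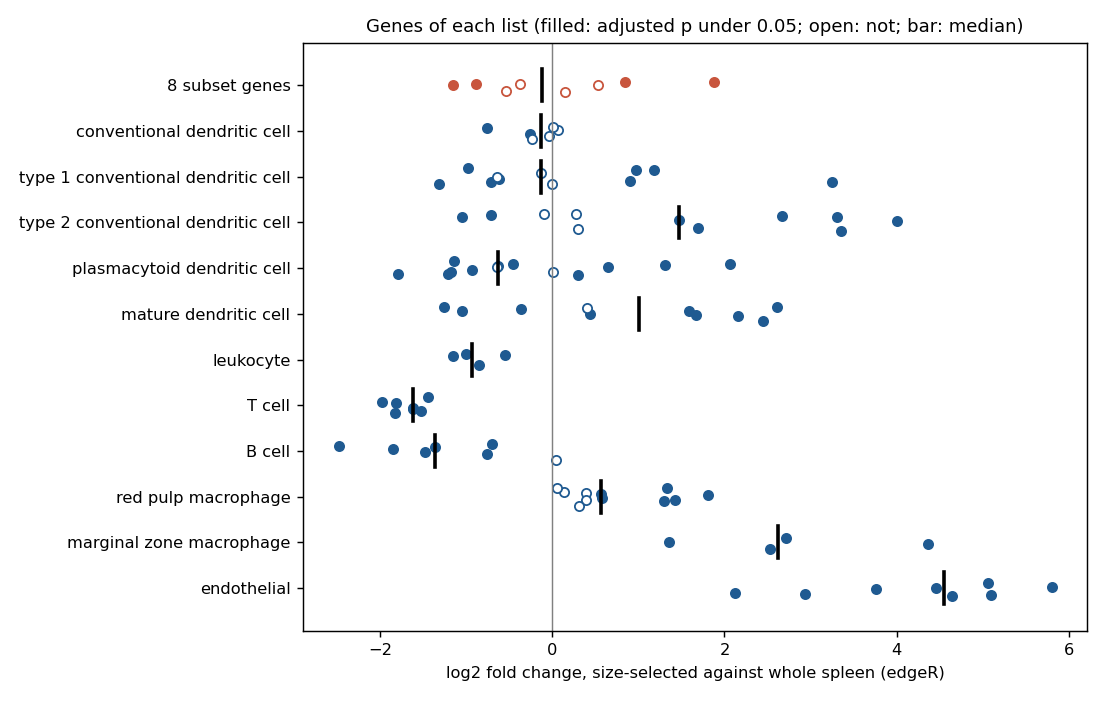
Log2 fold change (horizontal axis, edgeR, size-selected against whole spleen) of each tested gene of the 8 subset genes (red), of 5 dendritic cell lists and of 6 lists for other cells (blue). Filled points have an adjusted p under 0.05 and bars are medians; the dendritic cell lists spread over both sides of 0, T cell genes lie below it and endothelial genes above it.

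Of the growth factors and receptors that act on dendritic cells, 6 of 11 were called higher and 3 lower. Beside this and the next 3 counts stand the same 37.5% and 30.4% of all tested genes. Flt3l, the ligand of Flt3, had a log2 fold change of 0.03 (edgeR adjusted p = 0.925), ranging from 4.92 to 10.3 CPM in the size-selected samples and from 3.53 to 10.9 CPM in whole spleen. Csf2, which encodes the cytokine GM-CSF, rose by 1.53 (edgeR adjusted p = 0.00725) and Csf1, the growth factor of macrophages, by 4.80 (edgeR adjusted p = 5.81e-11). Among C-type lectin relatives 6 of the 13 tested were called higher and 1 lower (8 and 2 with the block). Cd209b, the SIGNR1 lectin of marginal zone macrophages, rose by 2.53 (edgeR adjusted p = 0.000108), and Cd209d had a log2 fold change of 0.58 that did not pass (edgeR adjusted p = 0.109). Cd209c did not pass the filter. In the progenitor list, which bears on Flt3, 6 of 7 genes were called higher and none lower, or 1 lower with the block (summed level 555 to 1200 CPM against 424 to 632 CPM), among them the stem cell receptor Kit at 0.51, Cd34, which endothelium also carries, at 4.71 and Ly6a at 0.43. Early response genes that tissue dissociation can induce were called higher in 7 of 8 cases, with Fos at 3.41 and Jun, an AP-1 partner of Batf factors, at 3.05, and Junb at -0.15 (edgeR adjusted p = 0.295) as the exception. What dissociation contributed to the values of the 8 genes was not tested.

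Males and females were compared within each preparation, 4 samples against 4. All male numbers are lower than all female numbers, so sex cannot be told apart from the order of the numbers. No gene of the 8 was called, beside 0.194% of 13383 genes tested in whole spleen (26 genes) and 0.0397% of 15127 genes in the size-selected samples (6 genes). In whole spleen 7 of the 8 had the lower fitted level in females, and 6 of the 8 did in the size-selected samples. At an unadjusted p under 0.05 stood 4 of them in whole spleen, beside 2149 of the 13383 genes tested, and 2 in the size-selected samples, beside 632 of 15127.

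The widest difference was that of Cd209a. In whole spleen its male samples were at 17.0, 18.6, 14.0 and 18.7 CPM and its female samples at 10.9, 3.98, 6.60 and 9.25 CPM, so that every male lay above every female. The log2 fold change of females against males was -1.15 (SE 0.27), with an edgeR adjusted p of 0.0835 over all genes. DESeq2, which called 3.87% of all genes in this comparison, gave an adjusted p of 0.00269 for Cd209a. In the size-selected samples the males were at 16.4, 8.44, 7.80 and 16.9 CPM and the females at 10.1, 3.51, 2.19 and 2.74 CPM, and female number 436 lay above 2 of the males. Here the difference was -1.45 (SE 0.50, edgeR adjusted p = 0.999).

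Flt3 and Batf3 were also higher in every male than in any female whole spleen sample, which makes 3 of the 8 genes, beside 4.34% of the 13383 tested. Relative to Ptprc the sexes overlapped in whole spleen for all 3. In female number 460 the log2 ratio to Ptprc was -4.40 for Flt3, above every male (-5.01 to -4.58). It was -8.272 for Batf3 (males -8.393 to -8.265) and -5.75 for Cd209a (males -5.88 to -5.19). Ptprc itself was at 681 to 823 CPM in male and 457 to 749 CPM in female whole spleen samples, and its part was not tested. Flt3 was at 24.9 to 30.6 CPM in males and 15.0 to 24.6 CPM in females, or -0.42 on the log2 scale (SE 0.17, edgeR adjusted p = 0.271). Batf3 was at 2.17 to 2.45 CPM in males and 0.618 to 2.01 CPM in females, or -0.91 on the log2 scale (SE 0.44, edgeR adjusted p = 0.327). In the size-selected samples the sexes overlapped for both genes. There Clec4a4 was the one gene of the 8 without overlap, beside 1.07% of the 15127 tested with every male above every female. It was at 0.839 to 1.13 CPM in males and 0.274 to 0.820 CPM in females, from at most 20.07 counts per sample. Zbtb46 had a log2 fold change of 0.01 in whole spleen and 0.26 in the size-selected samples (edgeR adjusted p = 0.991 and 0.999).

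The difference between preparations was tested for dependence on sex as an interaction. edgeR called 0 of 15760 genes (a share of 0%), with 744 at an unadjusted p under 0.05, and DESeq2 called 3. None of the 8 genes was called by either tool, and none had an unadjusted p under 0.05 in edgeR. The estimate farthest from 0 was that of Siglech, 0.57 (SE 0.44), whose fold change between preparations was 0.43 in females and -0.20 in males, neither of them called.

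**Figure D5:**
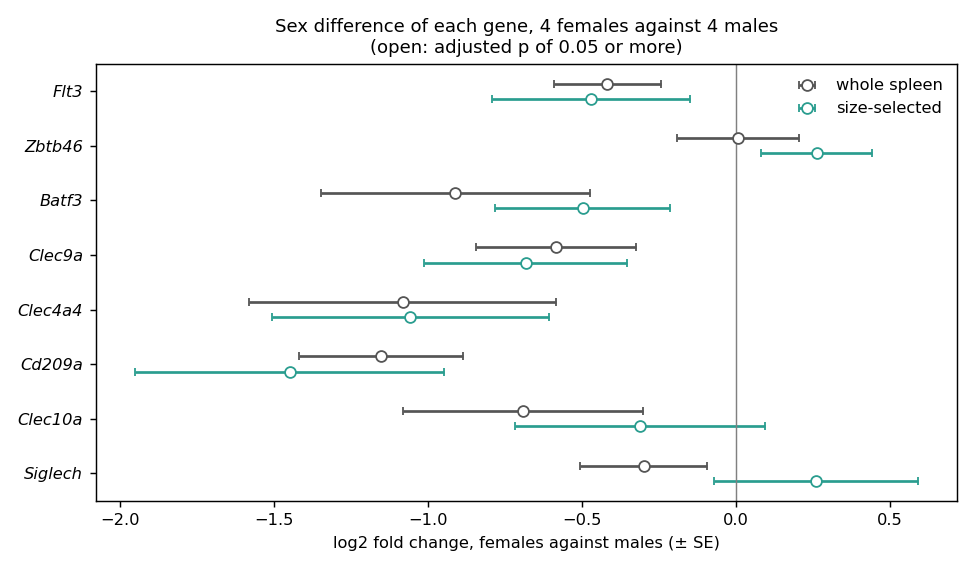
Log2 fold change of females against males (horizontal axis, with SE bars, 4 samples each) of each gene in whole spleen (grey) and in the size-selected samples (green). All points are open because none had an adjusted p under 0.05; Cd209a has the most negative estimate in both preparations.

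How the 8 genes varied from sample to sample within a preparation was described by the Pearson correlation of deviations from the group mean log2 CPM over all 16 samples, which share libraries and depth. Differences between the sexes and between numbers were left in these deviations, and their part in each r was not tested. Clec9a followed Cd209a (r = 0.77), Flt3 (r = 0.74) and Clec4a4 (r = 0.72), and Flt3 ran against Zbtb46 (r = -0.71). Siglech had no r above 0.22 with any of the other 7, and its lowest was -0.39 with Cd209a. Over all tested genes the patterns most like that of Flt3 were those of Chd7 (r = 0.93), Gm34006 and Trim30b (both at least 0.91). For Zbtb46 they were Src (0.92), Pla2g2d (0.89) and Carhsp1 (0.89), and for Batf3 Tmem218 (0.90), 4930486L24Rik (0.88) and Ceacam1 (0.86). Clec9a was most like Pyroxd1 (0.89), 1700097N02Rik (0.88) and Pacsin1 (0.87), the last of which is in the plasmacytoid list. Cd209a was most like Cnn2 (0.92), H2-DMb1 (0.90) and Fam172a (0.90), and H2-DMb1 encodes a chain of the chaperone that loads peptides on MHC class II. For Clec4a4 the values were 0.88 with Nadsyn1, 0.84 with Tkt and 0.83 with Gpr141b, for Clec10a 0.84 with Pex6, 0.81 with Sspn and 0.80 with Tm7sf2, and for Siglech 0.79 with Gm15922, 0.77 with Epop and 0.77 with Abl1.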

How the data were processed

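RNA from 8 size-selected and 8 whole spleen samples was sequenced. The authors deposited estimated counts per gene. The submitters' processing notes name Trim Galore, STAR, RSEM, DESeq and the build mm10, without versions. In the size-selected columns the deposited values of 3898 genes are 2-decimal values multiplied by constants, a step found from the values that no label records; dividing by them gave restored counts. A second deposited table with the authors' own comparison (mean signal, log2 fold change, test score, p-values, and TPM and FPKM per group, per the file headers) was not used here.

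Counts were rounded to whole numbers and filtered (filterByExpr, minimum count 10). After TMM scaling, edgeR 4.0.16 in R 4.3.3 ran its quasi-likelihood test, with Benjamini-Hochberg adjustment over all genes tested and a threshold of 0.05. The preparations were compared over all 16 samples, the sexes within a preparation. Fits were tested on simulated counts. Positions come from GENCODE M21 on GRCm38, which holds 54723 of the 54838 identifiers. Samples are paired by the number in their titles. Same-numbered samples deviated together in all 8 pairs (mean r = 0.21, lowest 0.12, against -0.03 for other numbers). Nothing says that samples came from separate animals, so p-values measure the spread between these samples. The genes, lists and alternatives (other scaling, filters, DESeq2 1.42.0, limma-voom of limma 3.58.1, the block, restored counts, a single sex, each number left out) were chosen with earlier results of these data known. Besides the 8 genes, those named come from Ptprc, the first 3 of each list and, for each gene, the 3 most alike in pattern. For lists of other cell types not all of these are named, and other genes were chosen after their values were seen. Restored counts with the block, and further leukocyte references, were added after seeing the data. Some glial genes are not reported here.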

Additional observations from a re-analysis of the deposited data

How the results depend on the processing

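Over 19 alternatives of the comparison of preparations, 2 to 3 of the 8 genes were called lower and 1 to 3 higher, the 1 being Zbtb46 in the 4 male pairs alone, where calls over all genes were also fewer (6774 of 14642, against 9855 of 14510). With each number left out the calls were 2 lower and 2 to 3 higher. Of the other dendritic cell genes 10 were called lower in males alone, against 18, while over all genes 2799 were, against 4409, and 17 to 22 were called higher in all settings. The fold changes of Flt3, Zbtb46 and Clec9a kept their direction and their call in all 19. Siglech turned to -0.20 in males alone, not called in either case. With the number as a replicate block the log2 fold change of Cd209a became -0.70 and was called, and no other of the 8 genes changed its call. With restored counts and the block together Clec10a was at 0.79 (edgeR adjusted p = 0.0191); over its 19 alternatives the fold change ranged from 0.31 to 0.82.

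Scaling by library totals moved the median log2 fold change of all genes from 0.05 to 0.18 and changed no call among the 8. Between the sexes in whole spleen 1 of the 8 genes, Cd209a, was called without a filter on low counts, with DESeq2 and without replicate 427 (1 in each), so that leaving out a number gave 0 to 1. Over all genes this comparison called 26, but 273 without a filter, 518 with DESeq2, 44 with a minimum count of 30 and 7 to 261 with a number left out (7 to 17 without 407, 435, 445, 447 or 460, 87 without 436, 261 without 427). In the size-selected samples it called 6 genes, and 22 with DESeq2. No alternative called any of the 8 genes between the sexes in the size-selected samples or in the interaction. For the interaction 1 gene was called without replicate 445 and 3 with the block. Counts as low as 4.03 limit Clec4a4 and, less so, Batf3, and 4 samples per sex limit the sex comparisons.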
